A study of Mus musculus with 6 samples.

Results

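The data are read counts of double-stranded DNA oligos that ran with recombinant mouse Gli protein on a gel (bound) or without it (unbound). The oligos described here are the variants of a 16-base Gli site at positions 7 to 10. The reference was the most frequent base at each of the 16 positions of the table. Members equal the reference at positions 1 to 6 and 11 to 16 and differ from it at 1, 2 or 3 of positions 7 to 10. They number 174 of the 1266 sequences in the 16-base table, and of the 2094 sequence lines of the whole series. There are 12 members with 1 mismatch, 54 with 2 and 108 with 3, so every such sequence was present. The choice used no binding value.

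A bound and an unbound sample were sequenced from each of 3 binding reactions in the series, and all use the same protein and an electrophoretic mobility shift gel. The sample titles name the protein Gli1. The 16-base table names neither its reaction nor a methylation state, so its columns were read simply as bound and unbound counts. The labels of the reaction titled R1-R5 list both unmethylated libraries and libraries treated with the CpG methyltransferase M.SssI, and the table gives 1 pair of counts per sequence.

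Gli proteins are the transcription factors at the end of the Hedgehog signalling pathway. They bind DNA through a row of C2H2 zinc fingers, and their known consensus site is GACCACCCA, which are the bases of the reference at positions 1 to 9. Positions 7, 8 and 9 are thus the last bases of the consensus, and position 10 is its first neighbour. The relative affinity of a sequence within a reaction is read from its bound count over its unbound count, called the ratio below.

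The sequences on which the results turn are shown 5′ to 3′ as listed in the table, with the 4 varied positions, 7 to 10, in capitals. They are the reference, its strongest and weakest single substitutions, a triple that kept only C at position 7, and doubles and triples that lost it.
Reference: gaccacCCAAgatgaa
A10C: gaccacCCACgatgaa
C7T: gaccacTCAAgatgaa
C7G/A10C: gaccacGCACgatgaa
C8G/A9G/A10G: gaccacCGGGgatgaa
C7A/A9G/A10G: gaccacACGGgatgaa
C7G/A9C: gaccacGCCAgatgaa
C7T/C8T: gaccacTTAAgatgaa
C7T/C8T/A9T: gaccacTTTAgatgaa
A substitution gives the reference base, the position counted from 1 at the first listed base, and the variant's base. These are designed oligos, so they have no genome position.

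The reference had 8450 bound and 236 unbound reads, a ratio of 35.7. The members held 338086 of the 2101584 bound reads of the table and 32911 of its 291875 unbound reads. Bound reads per member ran from 416 to 6791, with a median of 1710.5. Unbound reads ran from 36 to 711, with a median of 131.5, so the unbound count set most of the error. All 174 members passed the minimum of 10 reads in each fraction. For the natural log of the ratio, the standard error from counting (SE) had a median of 0.09 and ran from 0.04 to 0.17. With 1 column of counts per fraction there is no replicate check and no test, and errors below are counting SEs. The reads are PCR products with no molecular identifiers, so copies of 1 molecule are counted again and these errors cover counting only.

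Binding fell as mismatches were added, but more slowly than in the first 7 bases of the site. The median ratio was 27.1 with 1 mismatch, with a range from 12.6 to 61.3. With 2 mismatches it was 21.2, with a range from 2.54 to 49.8. With 3 mismatches it was 8.55, and the range from 1.51 to 48.3 still reached above the reference. The 81 sequences that lost all 4 reference bases, which are not members, had a median of 4.03 and a range from 1.25 to 25.4. The ranges of members with 1, 2 and 3 mismatches overlapped, so the number of mismatches alone did not set the ratio.

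A ratio more than 2-fold below the reference was found for 94 of 174 members (54.0%), against 52.4% of the 1263 sequences of the table, members included and the reference left out, that had at least 10 reads in each fraction. The members' share was thus close to that of the whole table. By number of mismatches, 2 of 12, 21 of 54 and 71 of 108 members lay more than 2-fold lower. More than 2 counting SE below the reference lay 137 members (78.7%), against 62.9% of the table. More than 2 counting SE above it lay 4 members (2.30%), against 9.42% of the table.

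Windows on either side differed from positions 7 to 10. With 3 mismatches, the median ratio was 1.61 at positions 1 to 4 and 0.768 at positions 4 to 7, where all 108 sequences of each window lay more than 2-fold below the reference. At positions 10 to 13 the median with 3 mismatches was 40.4, and none of 108 lay more than 2-fold lower. The window of positions 7 to 10 therefore lay between a part of the site where 3 mismatches removed most binding and a part where they did not. All windows come from 1 pair of count columns, so no test of this difference was possible. Whether the windows come from different oligo libraries is not given, so window and library cannot be told apart.

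Among single substitutions, those of C at position 7 to G or T lowered binding most. C7T had 2420 bound and 192 unbound reads, a ratio of 12.6, which is 2.84-fold below the reference (-1.04 ± 0.10 on the natural log scale). C7G had 4319 and 315 reads, a ratio of 13.7, 2.61-fold below (-0.96 ± 0.09). C7A, with 2642 and 86 reads and a ratio of 30.5, changed it by -0.16 ± 0.13, within 2 counting SE. Position 7 thus separated A from the other substitutions, and C7G and C7T were the only singles more than 2-fold below the reference.

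The substitutions at position 8 were weaker. C8G had 1737 bound and 87 unbound reads, a ratio of 19.9, and C8A had 1126 and 53 reads, a ratio of 21.1. They changed the log ratio by -0.59 ± 0.13 and -0.53 ± 0.16. C8T had 1044 and 36 reads, a ratio of 28.6, and changed it by -0.22 ± 0.18, within 2 counting SE. Over the 16 contexts with C7 kept, however, C8T lowered the ratio by a median of 1.73-fold, against 1.54-fold for C8A and 1.35-fold for C8G.

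The 3 substitutions at position 9, the last base of the consensus, were closely alike. Their ratios ran from 24.4 to 27.4. A9T, with 1087 bound and 44 unbound reads, changed the log ratio by -0.38 ± 0.17, just beyond 2 counting SE. A9C, at -0.29 ± 0.16 with 1352 and 50 reads, and A9G, at -0.27 ± 0.14 with 2011 and 73 reads, did not pass that limit. With 50 and 73 unbound reads, a difference of this size was not detectable.

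At position 10, outside the consensus, no single substitution lowered binding beyond counting error. A10C had the highest ratio of all members, 61.3 from 4445 bound and 72 unbound reads, 1.72-fold above the reference (0.54 ± 0.14). A10G followed with 44.7 from 6734 and 150 reads (0.23 ± 0.11). A10T, with 4067 and 117 reads and a ratio of 34.6, lay at -0.03 ± 0.11. A10C and A10G differed by 0.32 ± 0.14, slightly more than 2 counting SE.

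The reference lies in every window, and the 6 single substitutions at positions 7 and 10 also lie in a neighbouring window. Their reads, from 2612 to 6884 per sequence in both fractions together, exceed the 1080 to 2084 of the 6 singles at positions 8 and 9. Whether counts pooled over windows shift these ratios was not tested.

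Position 7 divided the doubles as well. The 9 doubles at positions 9 and 10, which keep both C bases, had a median ratio of 39.1, near the reference, and only 1 of them lay more than 2 counting SE below it. The highest of these was A9C/A10C, at 49.8 from 1868 bound and 37 unbound reads, and the lowest A9T/A10T, at 24.1. The 9 doubles at positions 8 and 10 had a median of 24.7, from 17.3 for C8A/A10T to 32.7 for C8G/A10G. Those at positions 8 and 9 had a median of 20.6 and a narrow range, from 15.3 for C8T/A9T to 26.3 for C8G/A9G.

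Doubles that lost position 7 together with 8 or 9 had much lower ratios. At positions 7 and 8 the median was 5.63, and all 9 lay more than 2-fold below the reference. C7G/C8G was the lowest of them, at 2.55 from 975 bound and 382 unbound reads, and C7A/C8T the highest, at 15.0 from 1009 and 67 reads. At positions 7 and 9 the median was 4.41. C7G/A9C was the lowest double of all, at 2.54 from 993 and 390 reads, 14.0-fold below the reference.

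Doubles at positions 7 and 9 split by the base at position 7. With A at position 7, the doubles with A9C, A9G and A9T had ratios of 24.5, 25.5 and 21.1. With G or T at position 7, the 6 doubles lay between 2.54 and 5.38. These few doubles did not overlap, but over all members the ranges with A, G and T at position 7 did. With position 10 as the partner, the doubles had a median of 21.3, from 9.24 for C7T/A10T to 34.1 for C7A/A10T. C7G/A10C had 3285 bound and 102 unbound reads, a ratio of 32.1, against 13.7 for C7G alone. A10C thus raised the ratio 2.34-fold beside C7G (0.85 ± 0.12), so that this double lay within counting error of the reference, at -0.11 ± 0.12.

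Triples differed by which reference base they kept. The 27 triples that kept only C at position 7 had a median ratio of 24.8, 1.44-fold below the reference, and 2 of them lay more than 2-fold lower. Those that kept only position 8 had a median of 6.30, those that kept only position 9 one of 6.13, and those that kept only position 10 one of 3.72. More than 2-fold below the reference lay 19, 24 and 26 of 27 in these 3 classes. Their ranges overlapped with that of the first class.

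The extremes of each class were as follows. Among triples that kept C7, C8G/A9G/A10G was the highest, at 48.3 from 6791 bound and 140 unbound reads, and C8T/A9T/A10T the lowest, at 12.2. With 3 mismatches, the first of these lay 1.35-fold above the reference (0.30 ± 0.11). Among those that kept C8, C7A/A9G/A10G had a ratio of 41.5 from 4088 and 98 reads, while C7G/A9T/A10T had 2.18. Among those that kept A9, C7A/C8T/A10G had 19.7 and C7G/C8A/A10T 2.07. Among those that kept A10, C7A/C8G/A9G had 19.3, and C7T/C8T/A9T had the lowest ratio of all members, 1.51 from 416 and 275 reads, 23.6-fold below the reference. The highest triple of each class that lost C7 carried A at position 7, and the lowest carried G or T.

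Restoring 1 base in the sequences that had lost all 4 gives the triples above, each reached from several sequences. The order of positions here is therefore not separate from theirs. Restoring C at position 7 raised the ratio of all 81 sequences with 4 mismatches by more than 2 counting SE, with a median of 6.46-fold. The same limit applies to the counts that follow. Restoring C at position 8 raised 71 of 81, with a median of 1.90-fold, and lowered 2. Restoring A at position 9 raised 52 and lowered 10, with a median of 1.47-fold. Restoring A at position 10 raised 14 and lowered 25, with a median of 0.946-fold.

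Sorted by the base at position 7, the members formed groups with ordered medians and overlapping ranges. The C group holds a larger share of members with few mismatches than the others, so it is not matched with them in this. The 63 members with C had a median ratio of 26.0 and ran from 12.2 to 61.3. The 37 with A had a median of 18.0 and ran from 5.79 to 41.5. The 37 with T had a median of 4.63 and ran from 1.51 to 21.3, and the 37 with G a median of 3.28 and ran from 1.61 to 32.1. The ranges of all groups overlapped, those of T and G from 1.61 to 21.3. The 4 members more than 2 counting SE above the reference, A10C, A10G, A9G/A10G and C8G/A9G/A10G, all kept C at position 7 and had C or G at position 10.

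The contrast between bases at position 7 was sharpest when position 8 or 9 was also lost. For G the median ratio was 14.7 over the 4 members with C8 and A9 kept and 3.22 over the 33 with either lost. For A these medians were 31.2 and 15.0. For T, the 4 members with C8 and A9 kept ran from 9.24 to 21.3, and the 33 others had a median of 4.41. Where C7 was kept, the 60 members that lost C8 or A9 still had a median of 24.8. Among these 60, C8T/A9T/A10T alone, at 12.2, fell below the highest member with G or T at position 7 and a loss at 8 or 9, which was C7G/A9G/A10C at 13.3.

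Many doubles of position 7 with 8 or 9 had ratios below the sum of their single effects on the log scale. The departure is the observed log ratio relative to the reference less that sum. All departures use the same reference ratio and reuse the same singles. An error in 1 of these moves several departures together, so they are not separate observations. Of the 18 doubles of position 7 with 8 or 9, 13 lay below the sum by more than 2 counting SE and none above it, with a median departure of -0.67 and a median counting SE of 0.20. Measured around a least-squares fit to the reference and all members, the median of the same 18 was -0.16, and -0.12 with weights by counts. Of the other 36 doubles, 3 lay below and 2 above, with a median of 0.02. Among 108 triples, 52 lay below the sum of 3 singles and 3 above it. These 3 triples all kept C7.

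The 5 lowest departures were all of position 7 with 8 or 9. C7G/A9C had a ratio of 2.54, where the singles add to 10.3, a departure of -1.39 ± 0.18. C7G/A9T had 2.58 against 9.36 (-1.29 ± 0.19), and C7T/C8T had 3.02 against 10.1 (-1.21 ± 0.21). C7G/C8G and C7G/C8A followed, at -1.09 ± 0.15 and -0.98 ± 0.18. All 5 lay between 2.67-fold and 4.03-fold below their sums.

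The 5 highest departures were smaller, and 2 of them passed 2 counting SE. C8G/A9G had a ratio of 26.3, where the singles add to 15.2, a departure of 0.55 ± 0.20, and C8G/A9T had 22.5 against 13.6 (0.50 ± 0.23). C8G/A9C, A9G/A10T and C8A/A9T lay at 0.39 ± 0.22, 0.36 ± 0.20 and 0.35 ± 0.26. The median departure of the 9 doubles at positions 8 and 9 was 0.26. Their median ratio of 20.6 was near those of C8A and C8G alone and below the 28.6 of C8T alone.

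Which partner mattered in the doubles, which keep the reference bases at the other positions, depended on the base at position 7. Beside C7A in these doubles, substitutions at position 9 added up within counting error. The departures were 0.07 ± 0.24 for A9C, 0.08 ± 0.21 for A9G and 0.01 ± 0.24 for A9T. Beside C7A, substitutions at position 8 fell below the sum, at -0.80 ± 0.22 for C8A, -0.55 ± 0.19 for C8G and -0.49 ± 0.25 for C8T, of which the last was just under 2 counting SE. Beside C7G, departures ran from -1.09 to -0.67 at position 8 and from -1.39 to -0.94 at position 9. Beside C7T they ran from -1.21 to -0.14 at position 8 and from -0.84 to -0.58 at position 9.

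The departures depended on the rest of the window. With the reference base at position 10, positions 7 and 8 had a median departure of -0.67 over 9 pairs of substitutions while A9 was kept, and of -0.29 over 27 once A9 was lost. For positions 7 and 9 the medians were -0.67 with C8 kept and -0.11 over 27 with C8 lost. With C at position 10 the median departures did not shrink in this way. There the median for positions 7 and 8 was -0.07 with A9 kept and -0.37 with A9 lost. For positions 7 and 9 it was -0.49 with C8 kept and -0.58 with C8 lost. The last 2 medians were close, beside median counting SEs of 0.23 and 0.20 per departure, and the ranges overlapped in both comparisons. With G at position 10, the medians went from -0.62 to -0.24 for positions 7 and 8 and from -0.76 to -0.27 for positions 7 and 9. With T they went from -0.61 to -0.25 and from -0.49 to -0.34. An additive fit of base by position to the reference and all members accounted for 88.7% of the variance, with a residual SD of 0.32, against a median counting SE of 0.09.

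The cost of a substitution in all contexts of the other 3 positions, sequences with 4 mismatches included, ranked the bases at each position. C7G lowered the ratio by more than 2 counting SE in all 64 contexts, by a median of 8.44-fold, and C7T in all 64, by 6.74-fold. C7A did so in 52 of 64, by 1.97-fold. The medians for C8T, C8A and C8G were 1.97-fold, 1.85-fold and 1.70-fold, with 59, 49 and 49 of 64 contexts lower by more than 2 counting SE.

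At position 9, the purines A and G went with higher ratios than C and T in most contexts where C7 was lost. Counts of contexts here are of changes of more than 2 counting SE, and medians are over all contexts of a group. A9C and A9T lowered the ratio in 40 and 46 of 64 contexts, by medians of 1.49-fold and 1.61-fold. A9G lowered it in 17 and raised it in 15, with a median of -0.02 on the log scale. In the 48 contexts without C at position 7, A9C lowered the ratio in 39 and A9T in 40. For A9C these were 16 of 16 with G at position 7 (median 3.04-fold), 16 of 16 with T (1.92-fold) and 7 of 16 with A (1.18-fold). For A9T they were 14 of 16 with G (2.32-fold), 16 of 16 with T (2.29-fold) and 10 of 16 with A (1.42-fold). In the 48 contexts G at position 9 lay above C by a median of 1.69-fold, in 41 by more than 2 counting SE. It lay above T by 1.73-fold, in 45. With C7 kept, the median difference between G and C was 1.12-fold, in 3 of 16 contexts beyond 2 counting SE. G lay above T with C7 kept as well, by a median of 1.49-fold, in 11 of 16 contexts.

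Position 10 kept a preference of its own in most contexts. A10C raised the ratio in 42 of 64 contexts by more than 2 counting SE and lowered it in none, with a median of 1.39-fold. The gain was 1.42-fold with C at position 7, 1.32-fold with A, 1.44-fold with T and 1.92-fold with G. Beside C7G/A9G it was 3.26-fold, from 4.09 to 13.3 (1.18 ± 0.07). By the same limit of 2 counting SE, A10G raised the ratio in 21 contexts and lowered it in 3, with a median of 1.14-fold. A10T lowered it in 16 and raised it in 3 by that limit, with a median of -0.12 on the log scale.

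A second table, from the R4-R6 reaction, holds position 10 with positions 7 to 9 not listed. All 508 of its 7-base sequences occur as positions 10 to 16 of the 16-base table behind the reference at positions 1 to 9. There the sequence with A at position 10 had a ratio of 3.66 from 3292 bound and 898 unbound reads. C at position 10 had 7.27 from 1551 and 213 reads, 1.98-fold higher (0.68 ± 0.08). G had 1.22 from 1390 and 1136 reads and T 2.09 from 1440 and 689 reads. C was thus the highest base in both tables, while G lay below A in the R4-R6 reaction (-1.10 ± 0.05) and above it in the 16-base table. T also lay below A in the R4-R6 reaction (-0.56 ± 0.06), but within counting error of A in the 16-base table (-0.03 ± 0.11). For G and T the tables thus differed by more than the counting SEs, which do not cover differences between tables.

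The number of G and C bases at positions 7 to 10 was tabulated apart for members with and without C7. With C7 kept, the median ratios rose with it and were 18.9 with 1 G or C (8 members), 22.5 with 2 (23 members), 29.4 with 3 (24 members) and 42.5 with 4 (8 members). Among members that lost C7 the medians were 6.06 with 0 (12 members), 6.80 with 1 (36), 6.24 with 2 (39), 5.10 with 3 (20) and 5.12 with 4 (4). These counts include the bases whose preferences are given above, and the part of base composition in the result was not tested.

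A CpG between positions 6 and 11 occurred in 93 of 174 members. It arose from a single substitution in C7G, C8G, A9G and A10C, whose log ratios relative to the reference were -0.96, -0.59, -0.27 and 0.54. The first pair lay beyond 2 counting SE below the reference, and A10C lay above it. With C7 kept, the median ratio was 27.6 over 34 members with a CpG and 23.0 over 29 without. With C7 lost, all 37 members with G at position 7 (median 3.28) hold a CpG, since position 6 is C. Over all members that lost C7, the median was 5.61 over 59 with a CpG and 7.82 over 52 without. The ranges overlapped in both cases, and since the table gives no methylation state, the part of CpG methylation in these values cannot be told apart from that of the bases.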

How the data were processed

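Both fractions were cut from a mobility shift gel, extracted, amplified by at least 8 PCR cycles and sequenced, per the labels' protocols. The authors deposited whole-number read counts per sequence in each fraction, per the file headers, without scaling for depth. The authors also deposited the ratio of both counts, and an unheaded column that holds minus the natural log of the deposited ratio. Read counting software is not given in the sources used here.

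Log ratios were the natural log of (bound + 0.5)/(unbound + 0.5), for sequences with at least 10 reads in each fraction. Counting SEs were square roots of summed reciprocal counts. A call was a difference from the reference of more than 2-fold or, where stated, 2 counting SE. No p-value was computed. Reads in both fractions are given for many of the named members, and as ranges over all members. The members, lists and comparisons were chosen with earlier results of these data known. Comparisons by context, by base at position 7, by G and C and by CpG were added after the values were seen. Named sequences were the reference, all single substitutions, the highest and lowest member per number of mismatches, per pair of positions and per kept position, the 5 highest and 5 lowest departures among doubles with at least 30 reads in each fraction, and single substitutions that create a CpG. Others named were chosen after their values were seen. Alternatives covered the pseudocount, count minimum, fold, reference, deposited ratio and least-squares fits. The calculation was tested on simulated data. Computations used Python 3.11.15 and numpy 2.4.6.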

Additional observations from a re-analysis of the deposited data

How the results depend on the processing

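Of 122 alternative values for 28 results, 102 stayed within counting error of the main value or, for counts, within 1.5 times of it. For medians, the counting error used was the typical one of a single sequence, departure or context, not that of the median itself. Of the 102, 100 kept their direction. The other 2 were of the median departure of doubles outside positions 7 with 8 or 9, which went from 0.02 to -0.22 with at least 100 reads and to -0.02 in the weighted fit. The 102 included every alternative for the pseudocount (0 or 1), the deposited ratio and the fold of the call (1.5 or 4). Against the strongest member, A10C, all other single substitutions lay lower, and A10G turned from 0.23 to -0.32. The number of singles lower by more than 2 counting SE then rose from 5 to 11, and the members more than 2-fold lower from 94 to 150. A minimum of 100 reads left 117 members, 4 of them singles, and removed sequences with few unbound reads. It gave 2 lower singles, median log ratios of 1.79 and 1.81 with 2 and 3 mismatches against 3.05 and 2.15, a median of 1.68 for triples that kept position 8 against 1.84, and 1 of 4 doubles below the sum outside positions 7 with 8 or 9, against 3 of 36. No double of position 7 with 8 or 9 had all its singles left at that minimum, so its departure was not computed. Around a least-squares fit, which takes in these doubles themselves, their median departure was -0.16, and -0.12 with weights by counts, against -0.67 from the singles. No paired analysis was possible because the columns carry no replicate numbers and each fraction has 1 column of counts. Unbound counts below 100 limit the precision of the strongest members.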

Other observations

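The base at position 8 with the lowest ratio varied with the base at position 7. With A at position 7, A was the lowest of the 4 bases at position 8 in 16 of 16 contexts of positions 9 and 10. With T at position 7, T was the lowest in 16 of 16. With G at position 7, A was the lowest in 10 contexts, and G and T in 3 each. With C at position 7, T was the lowest in 12 contexts, and A and G in 2 each. C7A/C8A had a ratio of 8.05, against 9.77 for C7A/C8G and 15.0 for C7A/C8T. C7T/C8T had 3.02, against 3.96 for C7T/C8G and 6.43 for C7T/C8A. The contexts share 1 pair of count columns and include sequences with 4 mismatches, and the pattern was noticed in the data it describes.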
